A study of Homo sapiens with 18 samples.

Results

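The genes described here are 44 genes of striated muscle: the proteins of the sarcomere, a few muscle enzymes and storage proteins, and the transcription factors that set the skeletal muscle fate. They were chosen by name and matched to their Ensembl identifiers in an RNA-seq count table of 61487 identifiers, of which 40522 had at least 1 count. All 44 were found. The table holds 18 libraries from MSC-hTERT, an immortalised human mesenchymal stem cell line kept in culture with serum and FGF-2. Each of 6 groups has 3 libraries, numbered 1 to 3. One group carries pMSCV, which served as the empty-vector control, and one carries SRF, the serum response factor. The other 4 carry SRF-FOXO1, SRF-ICA1L, SRF-PDGFRB or SRF-RELA, each a fusion of SRF to the second gene named, of the kind found in soft tissue tumours with muscle-like features. The comparisons ask which genes SRF and each fusion raise or lower in mesenchymal cells. The same parent line and culture medium served every group, and the labels name no further treatment, time or clone. They do not say whether the 3 libraries of a group came from separate cultures, so the p-values below measure the spread between these libraries, which may be technical.

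The sarcomere is the contractile unit of skeletal and cardiac muscle. Thick filaments of myosin slide along thin filaments of actin, troponins switch the thin filament on when calcium rises, titin and nebulin act as springs and rulers, and the Z-disc ties neighbouring units together. In skeletal muscle the genes are turned on by the factors MYF5, MYOD1, MYOG and MYF6, with PAX3 and PAX7 acting earlier in precursor cells. SRF binds a short element called the CArG box in the promoters of many actin and contractile genes, and it needs cofactors to activate them.

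Of the 44 genes, 6 had no count in any library, 10 had at most 3 counts in each, and 13 more failed the filter on low counts. The adult cardiac myosins and the myogenic factors other than PAX3 were among those with at most 3 counts in every library. In the edgeR fit without a replicate term, no comparison had more than 2 of the 44 called, and only TNNC1, MYOZ1 and XIRP1 passed the test in any: TNNC1 rose in SRF-FOXO1, MYOZ1 in SRF-ICA1L and XIRP1 in SRF-PDGFRB. MYOZ1 was also high in SRF-RELA, with 12, 26 and 7 counts against none in pMSCV. It was not called there in that fit (edgeR adjusted p 0.0668), nor with any 1 library of the compared groups left out (0.0660 to 0.288). It passed there with the replicate number as a term, with DESeq2 (adjusted p 0.00170) or with no filter on low counts (edgeR adjusted p 0.00493), and the difference between SRF-ICA1L and SRF-RELA, 0.63 on the log2 scale (SE 0.59), was not called (edgeR adjusted p 0.999). LDB3 was higher than in pMSCV in SRF-RELA, SRF-ICA1L and SRF-FOXO1 with no overlap between libraries, and it passed in all 3 with the replicate number as a term in the fit, or with DESeq2, but not without. None was called in SRF against pMSCV.

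The promoters of LDB3, MYOZ1 and XIRP1 are shown because these genes are among those that carry the differences, and because SRF acts through the CArG box. TNNC1, which was also called, had no window in the RefSeq table, so its promoter was not searched. Each run is the window from 250 bases before to 50 bases after the RefSeq transcript start in GRCh38.p14, read 5′ to 3′ on the strand of the gene. Capitals mark a CArG box. LDB3 lies at chr10:86668261-86668560 on the plus strand, MYOZ1 at chr10:73641425-73641724 on the minus strand and XIRP1 at chr3:39192546-39192845 on the minus strand.
LDB3: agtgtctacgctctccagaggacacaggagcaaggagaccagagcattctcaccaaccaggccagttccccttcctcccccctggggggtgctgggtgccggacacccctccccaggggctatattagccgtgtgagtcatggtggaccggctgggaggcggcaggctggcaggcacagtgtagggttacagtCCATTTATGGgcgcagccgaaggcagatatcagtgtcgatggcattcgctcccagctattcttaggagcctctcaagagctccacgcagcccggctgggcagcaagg
MYOZ1: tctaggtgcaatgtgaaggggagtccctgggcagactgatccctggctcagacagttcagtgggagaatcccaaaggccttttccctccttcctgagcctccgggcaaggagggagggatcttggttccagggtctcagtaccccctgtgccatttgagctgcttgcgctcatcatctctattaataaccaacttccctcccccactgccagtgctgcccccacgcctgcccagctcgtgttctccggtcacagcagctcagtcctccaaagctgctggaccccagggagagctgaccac
XIRP1: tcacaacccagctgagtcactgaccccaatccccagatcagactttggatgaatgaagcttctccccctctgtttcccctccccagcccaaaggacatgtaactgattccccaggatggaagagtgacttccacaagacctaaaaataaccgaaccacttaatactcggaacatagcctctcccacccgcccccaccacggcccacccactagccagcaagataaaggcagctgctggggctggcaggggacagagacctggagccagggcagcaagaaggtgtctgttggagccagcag

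The search took only exact CArG boxes on both strands: CC, a run of A or T, then GG, of the length of the boxes printed below. The pattern reads the same on each strand. Sites that differ from it by a letter were not counted. Of the 44 genes, 30 had a window in the RefSeq table, with 34 windows in all. A box was found in 3 of the 30 genes (10%) and in 4 of the 34 windows (11.8%). Over the whole table, 1.60% of 27305 genes and 1.29% of 35116 windows held one. The LDB3 box starts 57 bases before the transcript start shown, and it also falls in the window of a second LDB3 start that overlaps the first. The others were MYL7, an atrial myosin light chain, 61 bases before its start, and MYOM1, an M-band protein, 32 bases before its start. The windows of MYOZ1 and XIRP1 held no match to these letters. For comparison, the muscle actin genes ACTA1 and ACTC1, which are not among the 44, held a box 97 and 109 bases before their starts. The boxes themselves are set side by side to show how far they differ within the shared frame.
LDB3: CCATTTATGG
MYL7: CCTTATTTGG
MYOM1: CCATAAAAGG
ACTA1: CCAAATATGG
ACTC1: CCAAATAAGG

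**Figure D1:**
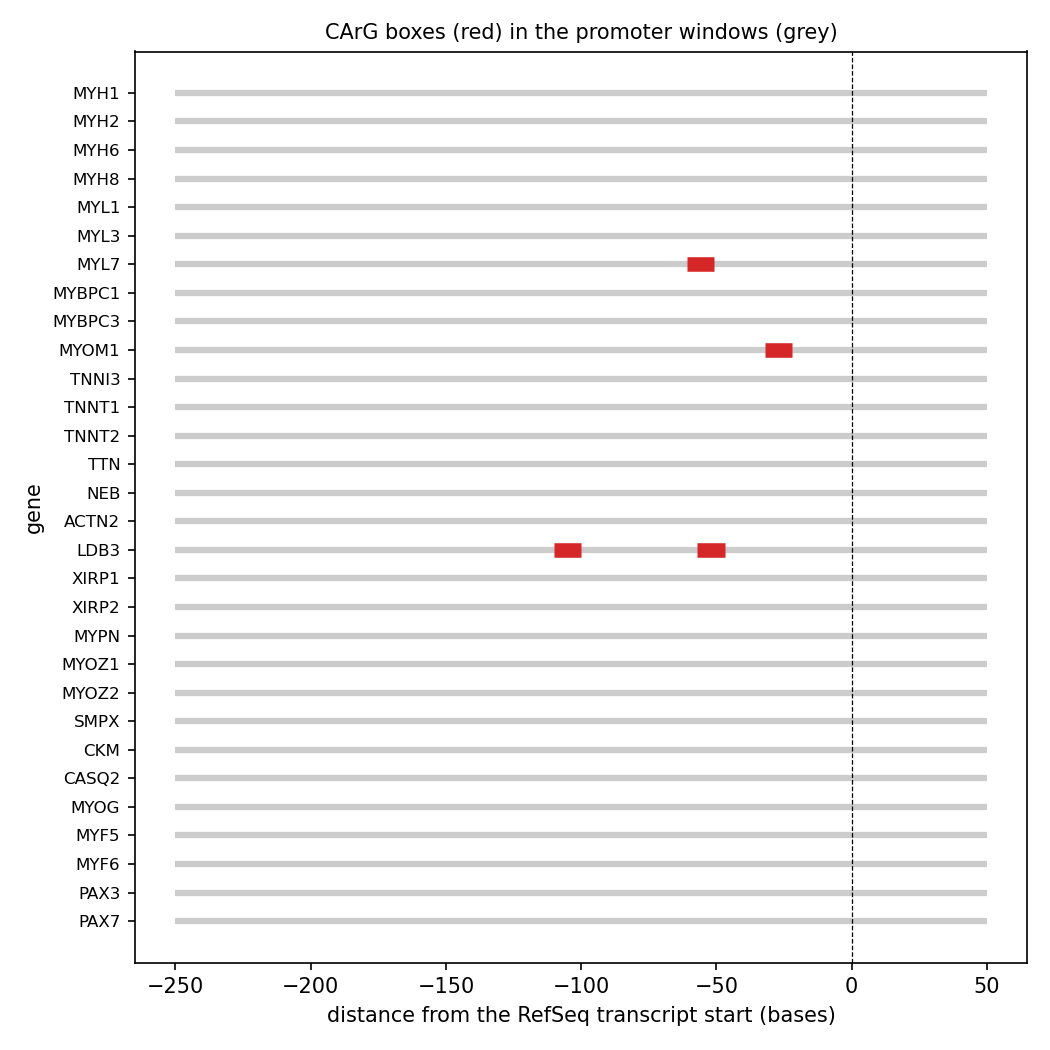
Position of CArG boxes (red) in the RefSeq promoter windows (grey) of the 30 genes with a window, in bases from the transcript start on the horizontal axis. Boxes appear only for MYL7, MYOM1 and LDB3; the 2 marks for LDB3 are 1 box seen from a pair of overlapping windows.

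Library totals ran from 19362319 to 29806771 counts, so that 3 counts correspond to 0.101 to 0.155 CPM in a library, where CPM is a count scaled to the library total. Counts of SRF were 57.3 to 64.4 CPM in pMSCV and 151 to 1122 CPM in the other groups. Reads of the fused partner were at 119 to 153 CPM for ICA1L in SRF-ICA1L (12.8 to 14.7 in pMSCV), 526 to 930 for PDGFRB in SRF-PDGFRB (381 to 502) and 234 to 268 for RELA in SRF-RELA (89.0 to 95.6). FOXO1, by contrast, was at 7.35 to 14.4 CPM in the libraries labelled SRF-FOXO1 and 9.45 to 17.5 CPM in pMSCV. Gene counts do not separate native from construct reads, and results for SRF-FOXO1 refer to the libraries labelled so. The stromal markers THY1, ENG, NT5E, CD44, ALCAM, VIM and COL1A1 were present in every library, the lowest being THY1 at 36.8 CPM. The blood cell marker PTPRC stayed at or below 0.277 CPM and the epithelial marker EPCAM at or below 0.537 CPM, while KRT8 was at 24.3 to 52.3 CPM and the endothelial marker PECAM1 at 4.31 to 28.0 CPM. Libraries numbered 2 stood apart in every group, with FOS, an immediate early gene, at 12.1 to 34.4 CPM against 381 to 1114 CPM in those numbered 1 and 3.

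Of the 44 genes, 6 had no read in any library: the adult cardiac myosin heavy chains MYH6 and MYH7, the fast skeletal light chain MYL1, and the regulators MYOG, MYF5 and PAX7. With 469457686 counts over the 18 libraries, a count of 0 allows a level of up to 0.00639 CPM, which covers counting error only. A further 10 had at most 3 counts in every library, which were MYBPC3, TNNI1, TNNI2, TNNI3, TNNT2, TNNT3, MYOD1, MYF6, CASQ2 and SMPX. Another 13 exceeded 3 counts somewhere but failed the filter on low counts, and these were ACTN2, MYL2, MYL3, MYL4, MYL7, MYBPC1, TNNC2, MYOM1, CKM, MYOZ2, CSRP3, PAX3 and PYGM. The remaining 15 entered the test: MYH1, MYH2, MYH3, MYH8, MYOM2, TNNC1, TNNT1, TTN, NEB, LDB3, XIRP1, XIRP2, MYPN, MYOZ1 and TCAP. A gene with counts in 1 group alone can pass this filter through that group. Of the genes called below, XIRP1 reached 10 counts only in the SRF-PDGFRB libraries and replicate 2 of SRF-FOXO1. MYOZ1 did so only in libraries of SRF-ICA1L and SRF-RELA. TNNC1 did so only in replicates 2 and 3 of SRF-FOXO1 and replicate 3 of SRF-RELA. These genes thus entered the test through the groups where they are high, and passing the filter is not separate evidence.

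**Figure D2:**
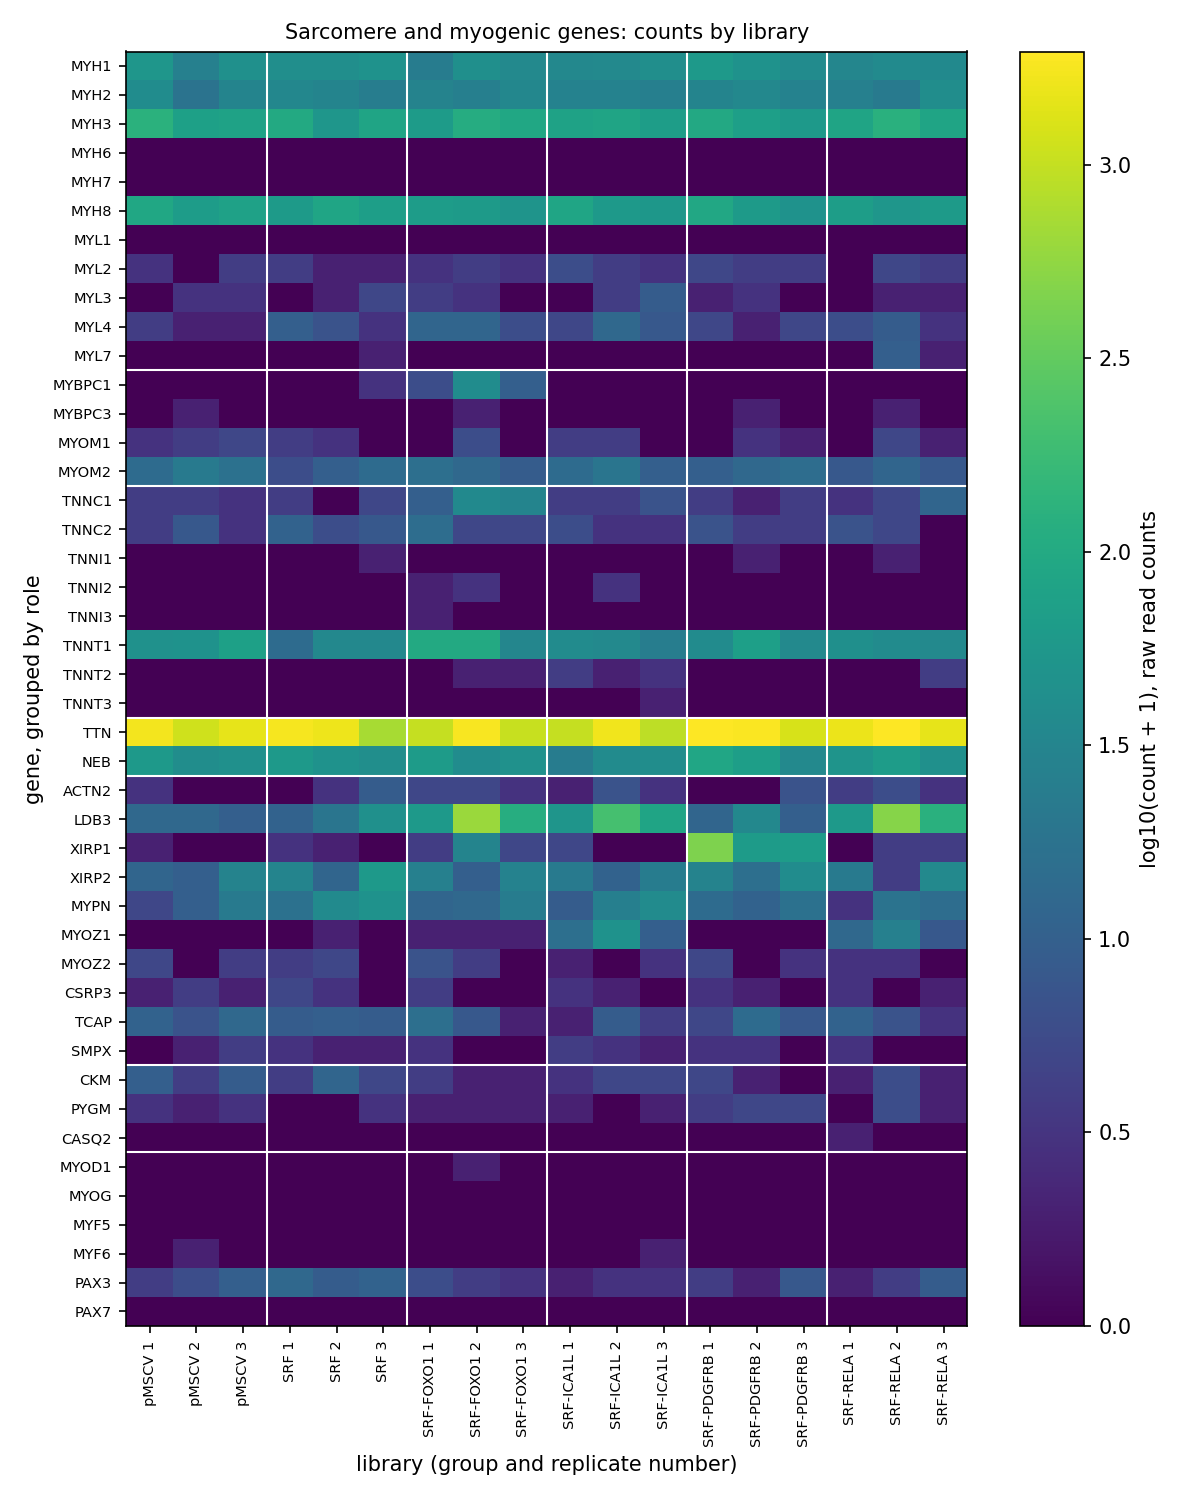
Raw counts of the 44 genes (rows, grouped by role) in the 18 libraries (columns), coloured by log10 of the count plus 1. TTN is bright throughout, most rows are dark throughout, and the patches limited to some groups are MYBPC1, TNNC1, LDB3, XIRP1 and MYOZ1.

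Summed over the 44 genes, the level was 63.5 to 78.8 CPM in pMSCV and 52.2 to 118 CPM in SRF-FOXO1, and most of it was titin. Without TTN the sum was 15.3 to 17.5 CPM in pMSCV, 15.8 to 17.8 CPM in SRF, 18.2 to 46.4 CPM in SRF-FOXO1 and 17.2 to 22.1 CPM in SRF-ICA1L. It was 17.9 to 33.4 CPM in SRF-PDGFRB and 19.3 to 33.2 CPM in SRF-RELA. The highest libraries of SRF-RELA, SRF-ICA1L and SRF-FOXO1 were those numbered 2, and that of SRF-PDGFRB was number 1. In these bulk libraries, fewer cells expressing a gene and less RNA per cell cannot be told apart.

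The 15 genes were tested in all 15 pairs of groups with edgeR's quasi-likelihood F test, two-sided, and called at an adjusted p under 0.05 over the 18544 genes tested. Against pMSCV, SRF-FOXO1 had 1 of the 44 genes called (TNNC1, higher), with 0.928% of all tested genes called in that comparison. SRF-ICA1L had 1 (MYOZ1, higher; 0.469% of all genes), and SRF-PDGFRB had 1 (XIRP1, higher; 0.0324% of all genes). SRF-RELA had 0 (0.183% of all genes), with 3 at an unadjusted p under 0.05 and 2 called by DESeq2. SRF had 0 (0.027% of all genes), with 3 at an unadjusted p under 0.05 and 0 by DESeq2. Here and below, shares of all genes at an unadjusted p under 0.05 or by DESeq2 are not given. Those numbers therefore have no background to be read against. The median log2 fold change of the 15 tested genes was 0.03 in SRF, 0.21 in SRF-RELA, 0.18 in SRF-PDGFRB, 0.00 in SRF-ICA1L and 0.19 in SRF-FOXO1, and over all tested genes it lay between -0.01 and 0.01. With at most 1 gene called in each, these counts describe single genes and not the group.

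Against SRF the same genes were called: TNNC1 in SRF-FOXO1 (1 gene; 1.36% of all genes), MYOZ1 in SRF-ICA1L (1 gene; 0.782%) and XIRP1 in SRF-PDGFRB (1 gene; 0.146%). SRF-RELA against SRF gave 0 by edgeR (0.388% of all genes), with 3 at an unadjusted p under 0.05 and 2 by DESeq2. These comparisons share their fusion libraries with those against pMSCV and are not separate evidence. Among the fusions, TNNC1 was higher in SRF-FOXO1 than in SRF-PDGFRB (1 gene; 0.717% of all genes). MYOZ1 was higher and XIRP1 lower in SRF-ICA1L than in SRF-PDGFRB (2 genes; 0.82%). XIRP1 was lower in SRF-RELA than in SRF-PDGFRB (1 gene; 0.162%). The other 3 pairs gave 0 by edgeR: SRF-FOXO1 against SRF-ICA1L (0.027% of all genes; 4 at an unadjusted p under 0.05, 1 by DESeq2), SRF-FOXO1 against SRF-RELA (0.00539%; 3 and 0) and SRF-ICA1L against SRF-RELA (0.0108%; 1 and 0).

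Libraries with the same number deviated together across groups, so the replicate number was also fitted as a block. The block raised the number of genes called throughout the table as well. Against pMSCV it called LDB3 beside TNNC1 in SRF-FOXO1 (2 genes; 7.03% of all genes), LDB3 beside MYOZ1 in SRF-ICA1L (2 genes; 4.66%), and LDB3 and MYOZ1 in SRF-RELA (2 genes; 0.971%). In SRF-PDGFRB it called XIRP1 (1 gene; 0.178%), and in SRF it called 0 (0.243% of all genes; 4 at an unadjusted p under 0.05). Against SRF it called LDB3 and MYOZ1 in SRF-ICA1L (2 genes; 4.73%) and in SRF-RELA (2 genes; 1.73%), and XIRP1 in SRF-PDGFRB (1 gene; 2.34%). Among the fusions it called MYOZ1, lower in SRF-FOXO1 than in SRF-ICA1L (1 gene; 0.911%) and than in SRF-RELA (1 gene; 0.167%). LDB3 and TNNC1 were called higher and XIRP1 lower in SRF-FOXO1 than in SRF-PDGFRB (3 genes; 4.35%). LDB3 and MYOZ1 were called higher and XIRP1 lower in SRF-ICA1L than in SRF-PDGFRB (3 genes; 4.76%), and likewise in SRF-RELA (3 genes; 0.847%). SRF-ICA1L against SRF-RELA gave 0 with the block (0.0162%; 2 at an unadjusted p under 0.05). For SRF-FOXO1 against SRF the libraries numbered 1 did not deviate together beyond the limit used, and the block, which called 3 genes and 7.23% of all genes, is not used beside its values.

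**Figure D3:**
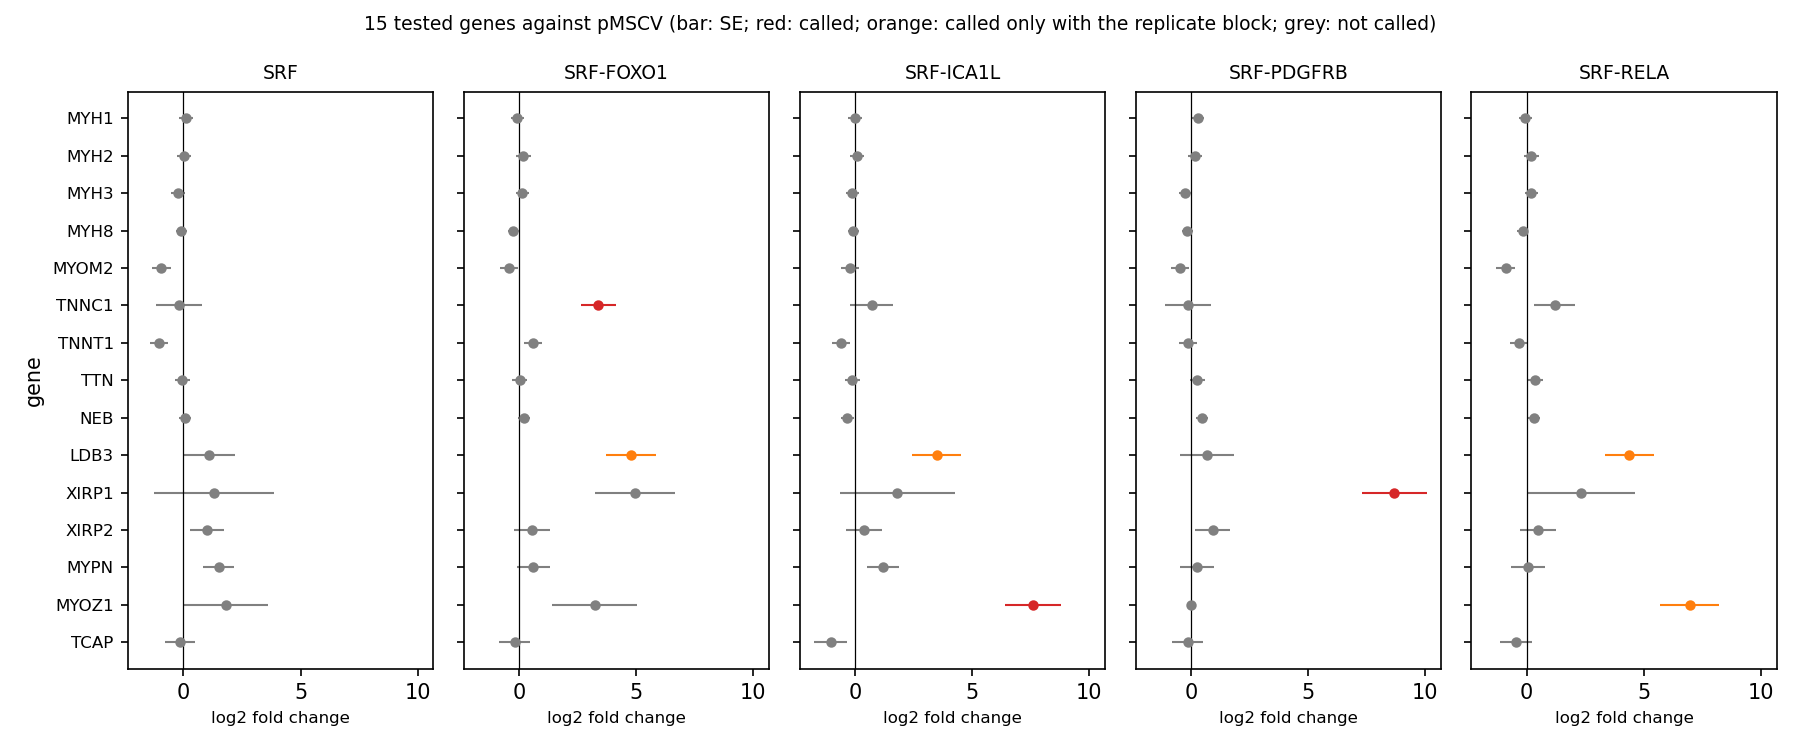
Fitted log2 fold change against pMSCV (horizontal axis, bars are 1 SE) of the 15 tested genes in each construct, with red for genes called, orange for genes called only with the replicate block and grey for the rest. The SE is worked back from the F statistic, and MYOZ1 in SRF-PDGFRB, fitted at 0, has none and no bar. Red marks TNNC1 in SRF-FOXO1, MYOZ1 in SRF-ICA1L and XIRP1 in SRF-PDGFRB, and orange marks LDB3 in 3 fusions and MYOZ1 in SRF-RELA.

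Myosin heavy and light chains make the thick filament and its motor. The 4 heavy chains tested were MYH1 and MYH2, of adult fast fibres, and MYH3 and MYH8, of embryonic and perinatal muscle. None changed in any of the 15 comparisons, and their log2 fold changes against pMSCV lay between -0.25 and 0.30. MYH3 was at 2.03 to 4.39 CPM, MYH8 at 1.86 to 3.41, MYH1 at 0.772 to 2.02 and MYH2 at 0.731 to 1.67 CPM, with every group overlapping the range of pMSCV except MYH8 in SRF-FOXO1. These genes are close copies of one another, and MYH1, MYH2 and MYH8 overlap the antisense gene MYHAS, which had 11 to 44 counts in each library. Whether the counting used strand is not given in the sources used here, so their low levels are uncertain. Of the light chains, MYL4, the atrial and embryonic form, reached at most 12 counts in a library and MYL2 and MYL3, the ventricular forms, at most 5 and 8. MYL7 had counts in 3 libraries only, 1 in SRF replicate 3 and 9 and 1 in SRF-RELA replicates 2 and 3.

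Myosin-binding protein C and the myomesins hold thick filaments in register. MYBPC1, the slow skeletal form, lies at chr12:101568353-101686018 in GRCh38 and is singled out here after its values were seen, since it failed the filter on low counts and was not tested. It had 5, 39 and 9 counts in the SRF-FOXO1 libraries, 0, 0 and 2 in SRF, and 0 in all 12 libraries of the remaining groups. The antisense gene that overlaps it had no count in any library. The counts therefore lay almost wholly in SRF-FOXO1, the highest being replicate 2. Set against a floor of 3 counts over the group, the summed SRF-FOXO1 counts were at least 18.5-fold higher than in pMSCV. Against SRF the ratio was 28.2, with an exact interval of 7.43 to 239 that covers counting error only. Both rest largely on replicate 2: without it the SRF-FOXO1 counts were at least 7.29-fold those in pMSCV, and the ratio to SRF was 11.1 (2.56 to 101). MYBPC3, the cardiac form, never exceeded 1 count. MYOM2, a myomesin of the M-band, was at 0.185 to 0.946 CPM and MYOM1 at up to 5 counts. MYOM2 was lower in SRF than in pMSCV by 0.94 on the log2 scale (SE 0.40) and in SRF-RELA by 0.90 (SE 0.41), and neither passed (edgeR adjusted p 0.915 and 1.00).

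Troponins sense calcium on the thin filament: troponin C binds it, troponin I blocks contraction and troponin T anchors the complex to tropomyosin. TNNC1, the troponin C of heart and slow muscle (ENSG00000114854, chr3:52451102-52454070), had 9, 36 and 30 counts in the libraries of SRF-FOXO1. It had 3, 3 and 2 in pMSCV, 3, 0 and 4 in SRF, 2, 4 and 11 in SRF-RELA, 3, 3 and 6 in SRF-ICA1L and 3, 1 and 3 in SRF-PDGFRB. The SRF-FOXO1 libraries lay above those of every other group except replicate 3 of SRF-RELA, with replicates 2 and 3 well above replicate 1.

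In CPM, TNNC1 was at 1.03 ± 0.633 (SD, n = 3) in SRF-FOXO1 and 0.101 ± 0.0301 in pMSCV. Its log2 fold change was 3.38 against pMSCV (SE 0.75, edgeR adjusted p 0.0443), 3.58 against SRF (SE 0.77, edgeR adjusted p 0.0309) and 3.50 against SRF-PDGFRB (SE 0.77, edgeR adjusted p 0.0489). The differences from SRF-ICA1L and SRF-RELA, at 2.67 and 2.19, did not pass (edgeR adjusted p 0.316 and 0.468). The call against pMSCV was sensitive to single libraries: the edgeR adjusted p was 0.231, 0.126 and 0.201 without pMSCV replicates 1, 2 and 3, 0.206 and 0.0952 without SRF-FOXO1 replicates 2 and 3, and 0.00699 without SRF-FOXO1 replicate 1. Against SRF the call was lost without SRF replicate 1 (0.126) or 2 (0.132) and without SRF-FOXO1 replicate 2 (0.131) or 3 (0.079). Against SRF-PDGFRB it was lost without SRF-PDGFRB replicates 1, 2 and 3 (0.173, 0.212 and 0.155) and without SRF-FOXO1 replicates 2 and 3 (0.178 and 0.109). The fold change kept its sign in each of these fits, between 3.02 and 4.13.

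TNNT1, the slow skeletal troponin T (ENSG00000105048, chr19:55132794-55149354), was the only troponin with over 12 counts in every library. Per exonic length its level was 0.222 to 1.80 RPKM (CPM divided by the exonic length in kilobases), and that of TNNC1 was 0 to 1.21 RPKM. Its level was 3.32, 3.91 and 1.43 CPM in SRF-FOXO1, 1.59, 1.98 and 2.56 in pMSCV and 0.482, 1.26 and 1.15 in SRF. The SRF libraries were below all 3 of pMSCV and all 3 of SRF-FOXO1, while SRF-FOXO1 and pMSCV overlapped. The log2 fold change of SRF-FOXO1 against SRF was 1.65 (SE 0.40) and just missed the threshold (edgeR adjusted p 0.0521), although it passed in DESeq2 (adjusted p 0.00376) and with no count filter (edgeR adjusted p 0.0247). It also passed without SRF replicate 3 (0.0428) or SRF-FOXO1 replicate 3 (0.0191). That of SRF against pMSCV was -1.05 (SE 0.40, edgeR adjusted p 0.90). TNNC2, the fast troponin C, reached 14 counts at most, and TNNI1, TNNI2, TNNI3, TNNT2 and TNNT3 at most 3.

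Titin, the giant spring that runs from Z-disc to M-band, had the most counts of the 44 genes in every library. TTN (chr2:178525989-178830802) had 728 to 1961 counts, or 25.3 to 71.3 CPM. Over its 118976 exonic bases this came to only 0.212 to 0.599 RPKM, so that per length the highest level of any of the 44 genes was LDB3 at 3.63 RPKM in 1 library. TTN was at 53.5 ± 6.91 CPM (SD, n = 3) in pMSCV, 50.8 ± 22.1 in SRF, 66.8 ± 3.87 in SRF-RELA, 65.1 ± 2.38 in SRF-PDGFRB, 45.4 ± 10.8 in SRF-ICA1L and 50.9 ± 18.9 in SRF-FOXO1. The libraries of SRF-PDGFRB and SRF-RELA all lay above those of pMSCV, with log2 fold changes of 0.28 and 0.37 (SE 0.32 each) that did not pass (edgeR adjusted p 1.00 each). The antisense gene TTN-AS1 overlaps 11381 exonic bases of TTN and had 143 to 300 counts in a library, and reads from the pair may not be separable. NEB, nebulin, the ruler of the thin filament, was at 0.911 to 3.03 CPM and lowest in SRF-ICA1L. It shares 166 exonic bases with RIF1, a gene on the other strand that had 1446 to 2950 counts in a library, and reads from the pair may not be separable. Its log2 fold change in SRF-ICA1L against SRF-PDGFRB was -0.78 (SE 0.26, edgeR adjusted p 0.215), with no overlap between the libraries.

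LDB3, also known as ZASP, is a PDZ and LIM domain protein that binds alpha-actinin and steadies the Z-disc (ENSG00000122367, chr10:86668449-86736068). Its level was 2.58, 17.2 and 5.06 CPM in SRF-RELA, 2.02, 7.29 and 3.46 in SRF-ICA1L and 1.95, 24.2 and 5.09 in SRF-FOXO1. It was 0.425, 0.516 and 0.312 in pMSCV, 0.371, 0.689 and 1.53 in SRF and 0.383, 1.13 and 0.465 in SRF-PDGFRB. All 9 libraries of SRF-RELA, SRF-ICA1L and SRF-FOXO1 thus lay above all 9 of the other groups, and in each of those 3 fusions replicate 2 was highest and replicate 1 lowest.

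The log2 fold change of LDB3 against pMSCV was 4.39 in SRF-RELA (SE 1.06, edgeR adjusted p 0.188), 3.48 in SRF-ICA1L (SE 1.05, edgeR adjusted p 0.210) and 4.78 in SRF-FOXO1 (SE 1.07, edgeR adjusted p 0.0522), none of which passed. With the replicate block it passed in each, at 4.07 (edgeR adjusted p 0.00418), 3.36 (edgeR adjusted p 0.00823) and 4.27 (edgeR adjusted p 0.00120). DESeq2 called all 3 as well (adjusted p 0.00120, 0.0203 and 0.000105). Against SRF the difference was 3.69 in SRF-FOXO1 (SE 0.98, edgeR adjusted p 0.0819) and did not pass, although DESeq2 called it at 3.72 (adjusted p 0.00430). With the block LDB3 was also higher than in SRF in SRF-ICA1L by 2.21 (edgeR adjusted p 0.0398) and in SRF-RELA by 2.92 (edgeR adjusted p 0.0151). It was higher than in SRF-PDGFRB in SRF-FOXO1 by 3.72 (edgeR adjusted p 0.00282), and likewise in SRF-ICA1L by 2.81 (edgeR adjusted p 0.0151). SRF-PDGFRB was below SRF-RELA, at -3.53 (edgeR adjusted p 0.00877). Without SRF-FOXO1 replicate 1 and without the block, the fold change against pMSCV was 5.26 and passed (edgeR adjusted p 0.0136), and without SRF-FOXO1 replicate 2 it was 3.10 (edgeR adjusted p 0.238). Without SRF-FOXO1 replicate 1 the differences from SRF and SRF-PDGFRB also passed (edgeR adjusted p 0.0254 and 0.0271). Leaving out SRF-RELA replicate 2 gave 3.22 in place of 4.39, and leaving out SRF-ICA1L replicate 2 gave 2.79 in place of 3.48. SRF and SRF-PDGFRB differed from pMSCV by 1.09 (SE 1.11) and 0.70 (SE 1.14), within the spread of the libraries.

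MYOZ1, or calsarcin-2, is a Z-disc protein of fast skeletal fibres that binds calcineurin (ENSG00000177791, chr10:73631654-73641757). It had 15, 46 and 9 counts in SRF-ICA1L and 12, 26 and 7 in SRF-RELA. In SRF-FOXO1 it had 1 count in each library, in SRF 0, 1 and 0, and in pMSCV and SRF-PDGFRB none in any. The 6 libraries of SRF-ICA1L and SRF-RELA lay above all 12 others, and replicate 2 was the highest of both groups.

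The level of MYOZ1 was 0.856 ± 0.652 CPM (SD, n = 3) in SRF-ICA1L and 0.579 ± 0.312 CPM in SRF-RELA. From summed counts and a floor of 3 counts over the group, SRF-ICA1L exceeded pMSCV by at least 24.0-fold (edgeR adjusted p 0.0142) and SRF-PDGFRB by at least 23.1-fold (edgeR adjusted p 0.0138). The bounds cover counting error only, not the spread between libraries. Without SRF-ICA1L replicate 2 they were 13.1-fold and 12.6-fold. The ratio to SRF, which had 1 count, was 73.5 with an exact interval of 12.8 to 2944 for counting error (edgeR adjusted p 0.0198), and 39.9 (6.51 to 1643) without that library. In SRF-RELA it was at least 16.1-fold higher than in pMSCV, which missed the threshold (edgeR adjusted p 0.0668) and passed with the block (edgeR adjusted p 0.00198). With the block it was also called in SRF-RELA against SRF (edgeR adjusted p 0.00313) and against SRF-PDGFRB (edgeR adjusted p 0.00214). SRF-FOXO1, with 3 counts in all, was lower with the block than SRF-ICA1L and SRF-RELA (edgeR adjusted p 0.00466 and 0.0369), and the ratios of summed counts were 23.0 (7.56 to 114) and 15.4 (4.94 to 77.5). The first was 12.5 (3.80 to 64.9) without SRF-ICA1L replicate 2.

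The MYOZ1 call in SRF-ICA1L against pMSCV was lost without pMSCV replicates 1, 2 and 3 (edgeR adjusted p 0.0748, 0.0553 and 0.0788) and held without each SRF-ICA1L library (0.0115 to 0.0428). Against SRF it was lost without SRF replicates 1, 2 and 3 (0.0864, 0.0823 and 0.0645) and without SRF-ICA1L replicate 2 (0.0634). Against SRF-PDGFRB it was lost without SRF-PDGFRB replicates 1, 2 and 3 (0.0561, 0.0666 and 0.0564). In SRF-RELA against pMSCV, MYOZ1 was not called in any fit that left out 1 library of either group (edgeR adjusted p 0.0660 to 0.288). MYOZ2, the related protein of slow fibres and heart, had at most 6 counts in any library.

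XIRP1, known as Xin, is an actin-binding repeat protein of muscle attachment sites and injured fibres (ENSG00000168334, chr3:39183210-39192596). It had 455, 63 and 66 counts in SRF-PDGFRB, or 15.8, 2.16 and 3.41 CPM. In SRF-FOXO1 it had 3, 30 and 4 counts, in SRF-ICA1L 4, 0 and 0, in SRF-RELA 0, 3 and 3, in SRF 2, 1 and 0, and in pMSCV 1, 0 and 0. The SRF-PDGFRB libraries were above all 15 others, replicate 1 by far the highest, and replicate 2 of SRF-FOXO1 came next at 1.17 CPM.

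The summed counts of XIRP1 in SRF-PDGFRB were 608 times those in pMSCV, which held 1 count, with an exact interval of 109 to 24055 for counting error (edgeR adjusted p 0.0479). The ratio to SRF, with 3 counts, was 207 (70.3 to 1004; edgeR adjusted p 0.0290). Without SRF-PDGFRB replicate 1 the ratios were 214 (37.7 to 8511) and 72.6 (24.3 to 357). XIRP1 was lower in SRF-ICA1L than in SRF-PDGFRB at a fitted log2 value of -6.89 (SE 1.19; adjusted p 0.0125 by edgeR), and SRF-PDGFRB exceeded SRF-RELA by 6.35 (SE 1.13, edgeR adjusted p 0.0351). SRF-FOXO1 was below SRF-PDGFRB at -3.76 (SE 0.90, edgeR adjusted p 0.0712); the block gave -3.49, which passed (edgeR adjusted p 0.0327). In the same 3 SRF-PDGFRB libraries, SRF was at 337, 160 and 261 CPM and PDGFRB at 930, 526 and 673 CPM, so that replicate 1 was highest for all 3 genes. The part of construct level in the XIRP1 difference was not tested.

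Without SRF-PDGFRB replicate 1 the XIRP1 log2 fold change against pMSCV fell from 8.69 to 7.31 and was no longer called (edgeR adjusted p 0.186). The call was also lost without SRF-PDGFRB replicate 3 (0.088) and without pMSCV replicates 1, 2 and 3 (0.620, 0.411 and 0.274). Against SRF it was lost without SRF-PDGFRB replicates 1 and 3 (0.0896 and 0.0502) and SRF replicates 1, 2 and 3 (0.116, 0.108 and 0.138). Against SRF-RELA it was lost without SRF-PDGFRB replicates 1 and 3 (0.135 and 0.0554) and SRF-RELA replicates 1, 2 and 3 (0.120, 0.210 and 0.138). Against SRF-ICA1L it held without each SRF-PDGFRB library and was lost without SRF-ICA1L replicates 2 and 3 (0.0829 and 0.0645). The difference of SRF-FOXO1 from SRF-PDGFRB passed without SRF-FOXO1 replicate 2, at -5.62 (edgeR adjusted p 0.0497). With no filter on low counts, SRF-PDGFRB lost the XIRP1 call against pMSCV (8.68, edgeR adjusted p 0.231), SRF (7.40, 0.0936) and SRF-RELA (6.35, 0.124), and the call against SRF-ICA1L held (0.0468).

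**Figure D4:**
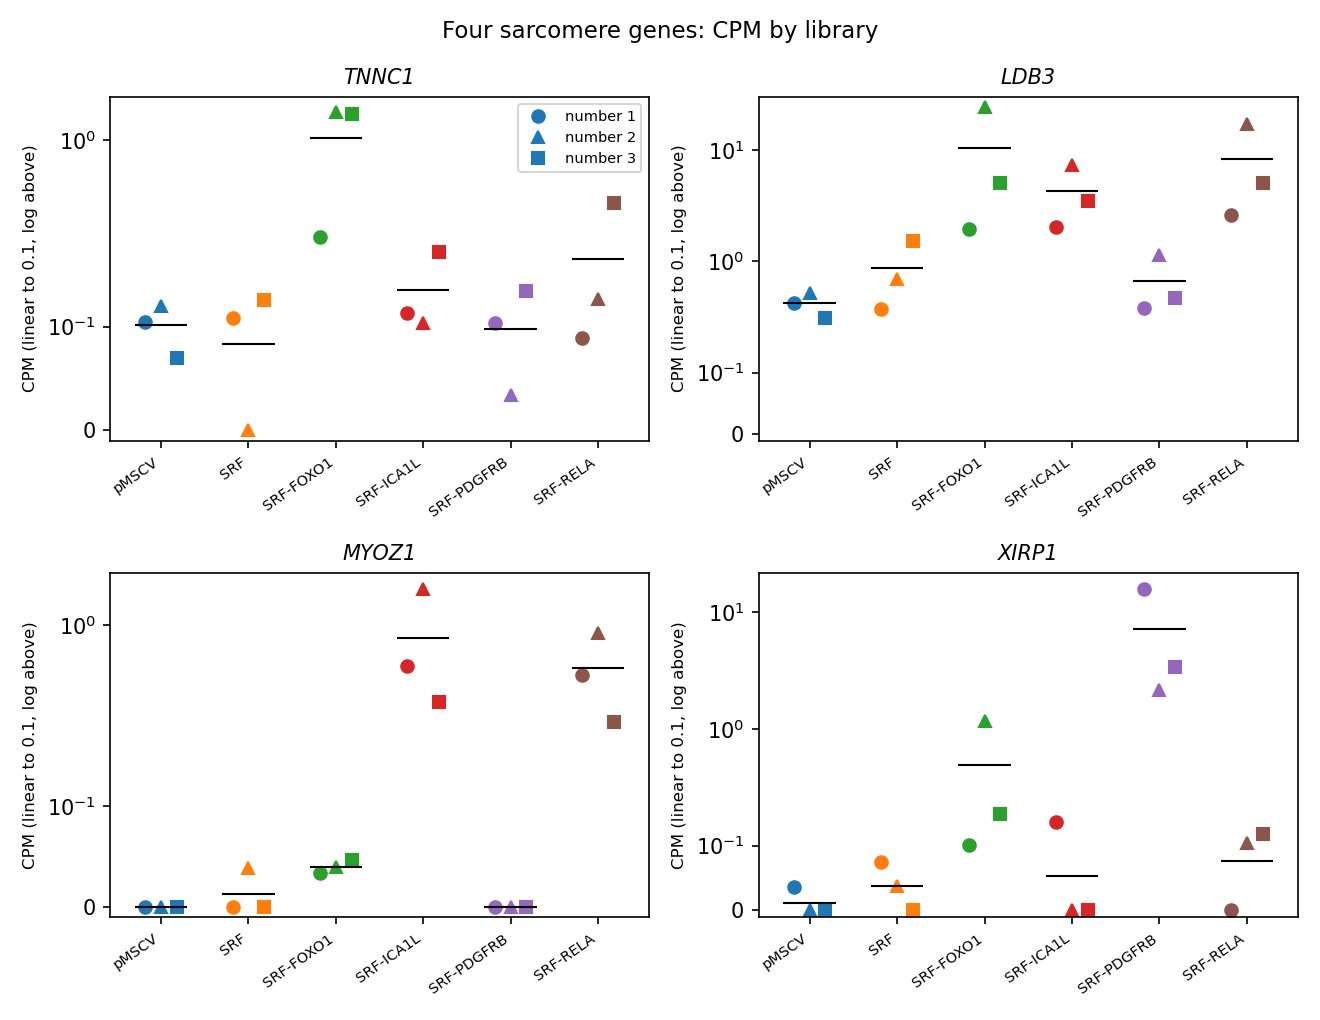
CPM of TNNC1, LDB3, MYOZ1 and XIRP1 in each library by group; marker shape gives the replicate number, the horizontal bar is the group mean, and the vertical axis is linear up to 0.1 CPM and logarithmic above. TNNC1 is high in SRF-FOXO1, LDB3 in SRF-RELA, SRF-ICA1L and SRF-FOXO1, MYOZ1 in SRF-ICA1L and SRF-RELA, and XIRP1 in SRF-PDGFRB.

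None of the other Z-disc and actin-binding genes was called in any comparison. XIRP2, the larger relative of XIRP1, was at 0.105 to 2.01 CPM, and its log2 fold changes against pMSCV of 0.37 to 1.00 had a widest SE of 0.77. The increase of XIRP1 in SRF-PDGFRB was therefore not matched by a called change in XIRP2, which was at 1.18 ± 0.764 CPM there and 0.594 ± 0.356 CPM in pMSCV. MYPN, myopalladin, which links nebulin to alpha-actinin, was at 0.593, 1.42 and 1.60 CPM in SRF and 0.142, 0.387 and 0.762 in pMSCV. The groups overlapped, and the log2 fold change of 1.5 (SE 0.67) did not pass (edgeR adjusted p 0.915). TCAP, the titin cap, was at 0.0396 to 0.503 CPM with no call. ACTN2, the alpha-actinin of the Z-disc, had at most 8 counts, CSRP3, muscle LIM protein, at most 4 and SMPX at most 3.

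Of the metabolic and calcium-storage genes, none could be tested. CKM, muscle creatine kinase, had at most 11 counts, PYGM, muscle glycogen phosphorylase, at most 5 and CASQ2, cardiac calsequestrin, at most 1. Among the transcription factors, MYOD1 had a single count in 1 library and MYF6 1 count in each of a pair of libraries, against none for MYOG, MYF5 and PAX7. PAX3 was the only one seen in every library, with 1 to 12 counts. It had 12, 8 and 10 counts in SRF and 3, 5 and 9 in pMSCV, groups that overlap, and it was not tested.

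The other genes of the pathway were read from 4 lists of related genes, chosen with earlier results of these data known. Of all genes tested against pMSCV, edgeR called 0.183% in SRF-RELA, 0.0324% in SRF-PDGFRB, 0.469% in SRF-ICA1L, 0.928% in SRF-FOXO1 and 0.027% in SRF. With the block these shares were 0.971%, 0.178%, 4.66%, 7.03% and 0.243%, and the counts of each list below are to be read against them. Of 50 further thick, thin and Z-disc genes, 33 were tested. Against pMSCV, edgeR called 4 higher in SRF-FOXO1 (ACTA1, ACTC1, CSRP1 and SYNPO2), 1 in SRF-ICA1L (CSRP1) and 1 in SRF-RELA (ACTA1), with none lower. CSRP1, a LIM protein that binds actin, rose by 1.67 in SRF-FOXO1 and 1.85 in SRF-ICA1L on the log2 scale (edgeR adjusted p 0.0296 and 0.0190). SYNPO2, a Z-disc partner of filamin, rose by 2.24 in SRF-FOXO1 (edgeR adjusted p 0.0410). DES, the intermediate filament desmin, failed the filter, with 1, 28 and 0 counts in SRF-FOXO1 and at most 5 in any other library. SRF had 0 (3 at an unadjusted p under 0.05, 0 by DESeq2) and SRF-PDGFRB 0 (0 and 0). With the block the counts were 12 higher and 1 lower in SRF-FOXO1, 5 higher and 1 lower in SRF-ICA1L and 4 higher in SRF-RELA, with 0 in SRF and SRF-PDGFRB. Leaving out pMSCV replicate 1, 2 or 3 ended the calls of CSRP1 in SRF-FOXO1 (0.197, 0.0893 and 0.142) and SRF-ICA1L (0.132, 0.0684 and 0.11), as did leaving out replicate 2 of SRF-FOXO1 (0.156) or of SRF-ICA1L (0.105). The SYNPO2 call was lost without pMSCV replicates 1, 2 and 3 (0.251, 0.116 and 0.163) and SRF-FOXO1 replicates 2 and 3 (0.192 and 0.0942). With no count filter both CSRP1 calls (0.115 and 0.0931) and that of SYNPO2 (0.129) were lost. The list's median log2 fold change was 0.50 in SRF-FOXO1, 0.33 in SRF-ICA1L and 0.17 in SRF-RELA.

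ACTA1 and ACTC1 encode the skeletal and cardiac muscle actins of the thin filament. ACTA1 was at 2.85, 110 and 13.3 CPM in SRF-FOXO1 and 8.13, 114 and 19.8 in SRF-RELA, against 0.0354, 0 and 0.139 in pMSCV. ACTC1 was at 2.25, 115 and 29.8 CPM in SRF-FOXO1 and 1.82, 42.7 and 9.11 in SRF-RELA, and at 0 in the 3 pMSCV libraries. No library of SRF-FOXO1 or SRF-RELA overlapped pMSCV for either gene, and replicate 2 was far above the others in both groups, as for LDB3. Like TNNC1, MYOZ1 and XIRP1, both actins entered the test through the groups where they are high, and passing the filter is not separate evidence.

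The log2 fold change of ACTA1 against pMSCV was 9.45 in SRF-FOXO1 (SE 1.75, edgeR adjusted p 0.0226) and 9.56 in SRF-RELA (SE 1.75, edgeR adjusted p 0.0456). For ACTC1, SRF-FOXO1 exceeded pMSCV by at least 1270-fold (edgeR adjusted p 0.0310), and by at least 370-fold without replicate 2. In SRF-RELA the summed ACTC1 counts were at least 528-fold higher than in pMSCV, and at least 149-fold without replicate 2. The difference missed the threshold (edgeR adjusted p 0.133) and passed with the block (edgeR adjusted p 0.00122). In SRF-ICA1L, ACTA1 was at 0.250 to 0.556 CPM, above the highest pMSCV library at 0.139, and its test against pMSCV did not pass with or without the block (edgeR adjusted p 0.473 and 0.764). ACTC1 had 5, 18 and 24 counts there against none in pMSCV, at least 16.1-fold more in summed counts. The difference did not pass either (edgeR adjusted p 0.0928 with the block and 0.561 without).

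Set against the other fusions, ACTA1 was lower in SRF-ICA1L than in SRF-FOXO1 by a fitted 6.76 (edgeR adjusted p 0.145), and SRF-ICA1L against SRF-RELA was at -6.87 (edgeR adjusted p 0.999). With the block both differences of ACTA1 passed, at 6.18 (edgeR adjusted p 0.00466) and -6.69 (edgeR adjusted p 0.0171). For ACTC1 the differences were 6.36 (edgeR adjusted p 0.243) and -4.85 (edgeR adjusted p 0.999), and with the block the first passed, at 5.86 (edgeR adjusted p 0.00375), and the second did not, at -4.56 (edgeR adjusted p 0.202). The actin genes are near copies of one another, and reads may be shared among them. In SRF-FOXO1 the ACTA1 call was lost without pMSCV replicates 1, 2 and 3 (edgeR adjusted p 0.160, 0.105 and 0.131) and SRF-FOXO1 replicate 2 (0.0706), and the ACTC1 call without the same libraries (0.160, 0.105, 0.142 and 0.0934). In SRF-RELA the ACTA1 call was lost without pMSCV replicates 1, 2 and 3 (0.318, 0.244 and 0.281) and SRF-RELA replicates 2 and 3 (0.132 and 0.0619). With no count filter the ACTA1 calls in SRF-FOXO1 (0.0709) and SRF-RELA (0.161) and the ACTC1 call (0.106) were lost.

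**Figure D5:**
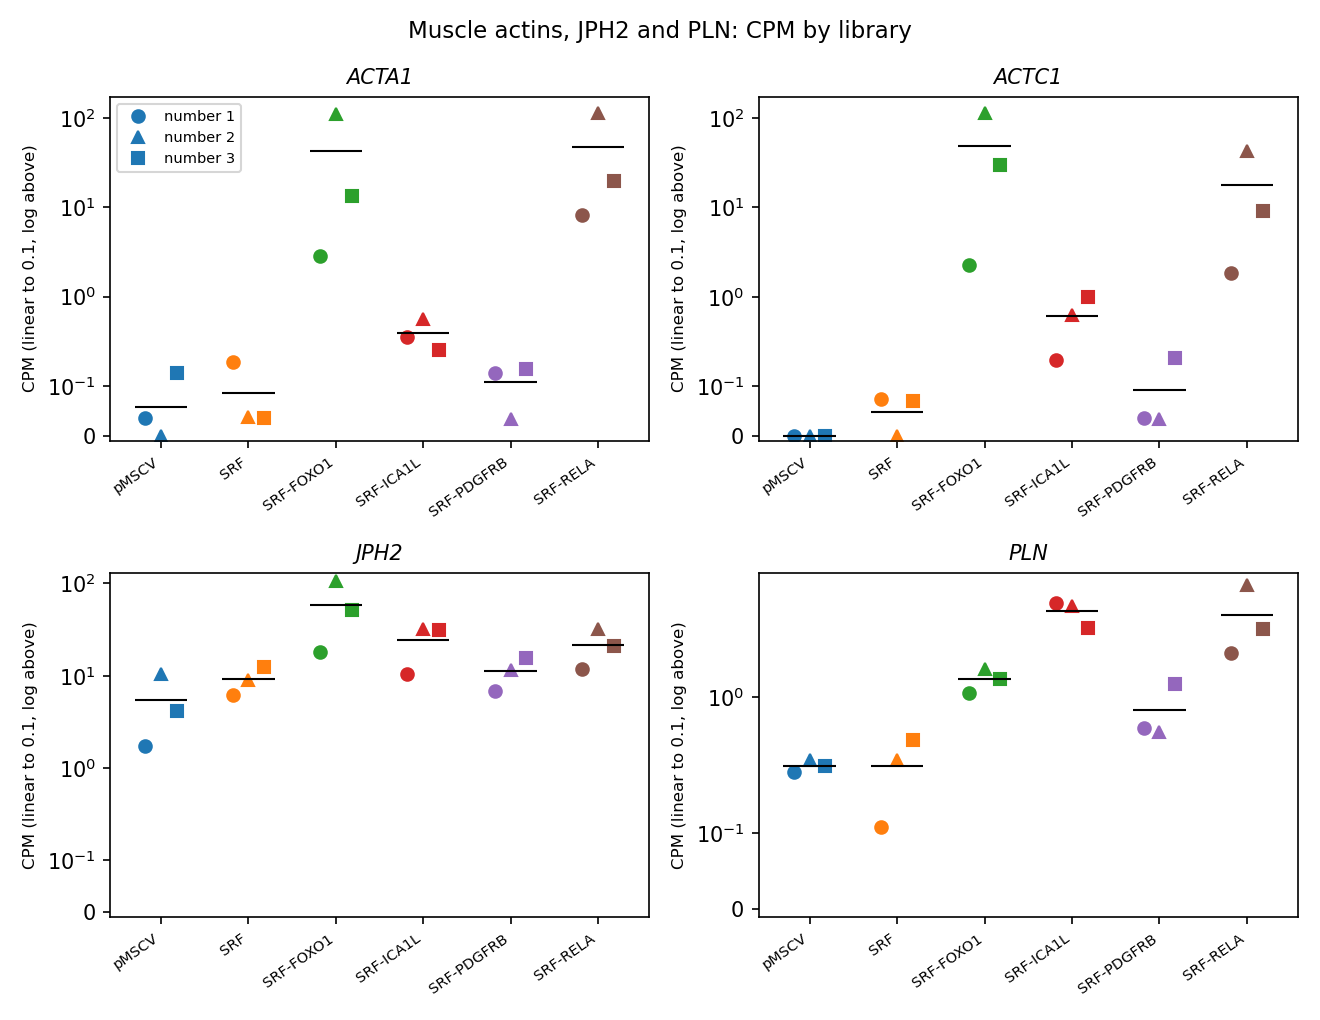
CPM of ACTA1, ACTC1, JPH2 and PLN in each library by group; marker shape gives the replicate number, the horizontal bar is the group mean, and the vertical axis is linear up to 0.1 CPM and logarithmic above. The actins are high in SRF-FOXO1 and SRF-RELA, JPH2 is highest in SRF-FOXO1, and PLN is highest in SRF-ICA1L and SRF-RELA.

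Of 26 genes of calcium handling and excitation, 12 were tested and 1 was called higher against pMSCV in each of SRF-RELA, SRF-ICA1L and SRF-FOXO1. SRF had 0 (0 at an unadjusted p under 0.05, 0 by DESeq2) and SRF-PDGFRB 0 (2 and 1). JPH2, which anchors the sarcoplasmic reticulum to the cell membrane, was at 17.9, 106 and 52.1 CPM in SRF-FOXO1 and 1.73, 10.4 and 4.16 in pMSCV, with 3.58 as its log2 difference (SE 0.75, edgeR adjusted p 0.0410). This call was lost without pMSCV replicates 1, 2 and 3 (0.220, 0.0619 and 0.186) and SRF-FOXO1 replicates 2 and 3 (0.203 and 0.0569), and with no count filter (0.121). With the block it also passed in SRF-ICA1L, at 2.41, and in SRF-RELA, at 2.19 (edgeR adjusted p 0.00227 and 0.00921). PLN, phospholamban, the inhibitor of the calcium pump, was at 4.83, 4.65 and 3.17 CPM in SRF-ICA1L and 2.09, 6.59 and 3.13 in SRF-RELA, against 0.283, 0.344 and 0.312 in pMSCV. Its log2 fold changes were 3.85 (SE 0.50, edgeR adjusted p 0.00186) and 3.71 (SE 0.50, edgeR adjusted p 0.00327), and both calls held without each library in turn and with no count filter. PLN is also expressed in smooth muscle.

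Of 41 muscle regulators and cell fusion genes, 25 were tested and edgeR called 0 against pMSCV in each of the 5 constructs. At an unadjusted p under 0.05 there were 0 in SRF-RELA, 1 in SRF-PDGFRB, 4 in SRF-ICA1L, 2 in SRF-FOXO1 and 2 in SRF, and DESeq2 called 1, in SRF-FOXO1. With the block 2 were called, the transcription regulators EYA4 and SIX4, which fell by 0.88 and 0.50 in SRF-FOXO1 (edgeR adjusted p 0.0178 and 0.0293). MYMK, the membrane protein of myoblast fusion, and the heart factors HAND1, HAND2 and TBX20 had no count in any library. Of 16 genes of the costamere and sarcolemma, which join the sarcomere to the cell membrane, 14 were tested and edgeR called 0 in each construct (at an unadjusted p under 0.05, 0 in SRF-PDGFRB, 2 in SRF-RELA, 2 in SRF, 3 in SRF-ICA1L and 6 in SRF-FOXO1). DESeq2 called 1 of them in SRF-FOXO1 and 1 in SRF-ICA1L. With the block, 3 rose and 2 fell in SRF-FOXO1, 3 rose and 1 fell in SRF-ICA1L and 2 rose in SRF-RELA. DYSF, the membrane repair protein dysferlin, and ITGA7, the muscle laminin receptor subunit, rose in all 3 fusions, by 2.33 to 2.55 and 1.45 to 1.57.

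Genes of smooth muscle, a cell type with contractile filaments but no sarcomeres, moved with the same groups. Of 15 listed, 14 were tested, and edgeR called 3 higher in SRF-FOXO1 (ACTA2, ACTG2 and LMOD1), 3 in SRF-ICA1L (ACTG2, LMOD1 and PLN) and 2 in SRF-RELA (ACTG2 and PLN). It called 0 in SRF (2 at an unadjusted p under 0.05, 1 by DESeq2) and 0 in SRF-PDGFRB (2 and 0). With the block the counts were 11, 9 and 6 in the 3 fusions, 1 in SRF and 0 in SRF-PDGFRB, none lower, beside the shares of all genes given above. The list's summed level was 1234 to 1908 CPM in pMSCV, 1340 to 1461 in SRF, 2039 to 4989 in SRF-FOXO1, 2042 to 2939 in SRF-ICA1L, 1833 to 2042 in SRF-PDGFRB and 1793 to 2941 in SRF-RELA. ACTG2, the smooth muscle gamma-actin, was at 1.52 to 11.4 CPM in pMSCV and 140 to 590 CPM in the 9 libraries of the 3 fusions, and rose by 6.26 in SRF-FOXO1 (adjusted p 0.00625), 4.93 in SRF-ICA1L (0.0140) and 5.24 in SRF-RELA (0.0243, all by edgeR). ACTA2, the smooth muscle alpha-actin, rose by 3.53 in the first of these (edgeR adjusted p 0.0187), and LMOD1, an actin filament nucleator, by 3.69 there and 3.20 in SRF-ICA1L (edgeR adjusted p 0.0212 and 0.0454). None of the 14 tested genes was at 0 in any library; KCNMB1 had at most 4 counts. MYH11, the smooth muscle myosin heavy chain, was at 1.38 to 14.6 CPM in SRF-FOXO1, 1.82 to 22.5 in SRF-RELA and 0.516 to 1.21 in pMSCV. MYOCD, myocardin, the SRF cofactor of heart and smooth muscle from the list of regulators, was at 0.106 to 14.0 CPM over all libraries and highest in replicate 2 of SRF-PDGFRB. Leaving out pMSCV replicate 1, 2 or 3 ended the calls of ACTG2 in SRF-ICA1L (0.0741, 0.0886 and 0.0651) and SRF-RELA (0.122, 0.156 and 0.107), ACTA2 in SRF-FOXO1 (0.141, 0.0854 and 0.0965) and LMOD1 in SRF-ICA1L (0.227, 0.0821 and 0.234). Leaving out pMSCV replicate 1 ended that of ACTG2 in SRF-FOXO1 (0.0623), and pMSCV replicate 1 or 3 that of LMOD1 there (0.152 and 0.131). Calls were also lost without SRF-FOXO1 replicate 2 (ACTA2 0.0655, LMOD1 0.0857), SRF-RELA replicate 2 (ACTG2 0.101) and SRF-ICA1L replicates 2 and 3 (LMOD1 0.206 and 0.0988). With no count filter the ACTG2 call in SRF-FOXO1 held (0.0155), and those of ACTG2 in SRF-ICA1L and SRF-RELA (0.0583 and 0.0725), ACTA2 (0.0511) and LMOD1 in SRF-FOXO1 and SRF-ICA1L (0.0598 and 0.140) were lost. The part of these genes in the differences of LDB3, TNNC1, MYOZ1 and XIRP1 was not tested.

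When the 6 libraries numbered 2 were left out together, an alternative chosen after the data were seen, all 10 calls of TNNC1, MYOZ1 and XIRP1 were lost. The log2 fold changes against pMSCV were then 3.26 for LDB3 in SRF-FOXO1, 2.95 in SRF-ICA1L and 3.38 in SRF-RELA, and 3.19 for TNNC1 in SRF-FOXO1. For MYOZ1 they were 6.71 in SRF-ICA1L and 6.43 in SRF-RELA, and for XIRP1 8.74 in SRF-PDGFRB. Every one of these kept its direction, with edgeR adjusted p between 0.151 and 0.414, and LDB3 was the gene whose fold moved most. Among the pathway genes ACTA1 fell from 9.45 to 6.47 in SRF-FOXO1 (edgeR adjusted p 0.0709), and PLN in SRF-ICA1L stayed called at 3.80 (edgeR adjusted p 0.0308) while the call in SRF-RELA was lost at 3.14 (edgeR adjusted p 0.146). ACTA1 in SRF-RELA moved from 9.56 to 7.27 and stayed called (edgeR adjusted p 0.0482). Calls were lost for ACTG2 in SRF-FOXO1, SRF-RELA and SRF-ICA1L (edgeR adjusted p 0.240, 0.758 and 0.330), and in SRF-FOXO1 for ACTC1 (0.306), JPH2 (0.290), SYNPO2 (0.456) and CSRP1 (0.170). They held for ACTA2 and LMOD1 in SRF-FOXO1 (edgeR adjusted p 0.0451 each) and for LMOD1 and CSRP1 in SRF-ICA1L (0.0302 and 0.0330).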

How the data were processed

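RNA was measured in 18 libraries of 6 groups. Per the labels' protocols, DNase-treated total RNA was made into TruSeq Stranded mRNA libraries and read on an Illumina NovaSeq. The authors deposited raw read counts per Ensembl gene. The submitters' processing notes name FastQC 0.11.8, Trimmomatic 0.39, HISAT2 2.12.1, featureCounts, Subread 2.0.3 and the build GRCh38. The annotation release and the strand setting of the counting are not given in the sources used here.

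From these counts, edgeR 4.0.16 in R 4.3.3 fitted all 18 libraries by group (TMM scaling, filterByExpr with a minimum count of 10, robust quasi-likelihood, 12 residual degrees of freedom, common biological coefficient of variation 0.225). P-values were adjusted by Benjamini-Hochberg over 18544 genes. CPM used library totals without TMM, and RPKM used GENCODE 29 exon lengths, from which symbols and gene coordinates (GRCh38) also came. Ratios of summed counts have exact 95% intervals, which cover counting error only, and their floor is 3 counts over the group.

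The 44 genes and the lists were chosen with earlier results of these data known. Values in every library are given for genes called in any comparison, for XIRP1, and for tested genes whose libraries do not overlap pMSCV and whose log2 fold change is 2 or more in either direction. From the lists, genes called against pMSCV are named, up to 12, with ACTA1, ACTC1 and DES always; MYH11, MYOCD, DYSF, ITGA7, EYA4, SIX4 and genes named for their role were added after their values were seen.

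Same-numbered libraries deviated together from their group means in 44 of 45 pairs (correlation over 0.1, median 0.375). The replicate number was therefore fitted as a block (10 residual degrees of freedom). Pairs with different numbers passed that limit in 2 of 90 (median -0.180). Deviations from the mean of 3 libraries sum to 0, so this lower value follows largely from the first and is not separate evidence. Where the pairing comes from is known only from these values, since the labels do not say what the number marks. Alternatives were other scalings, no filter, only the groups compared, DESeq2 1.42.0, a fold minimum and leaving out libraries. The fit was tested on simulated data.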

Additional observations from a re-analysis of the deposited data

How the results depend on the processing

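The fold changes of TNNC1, LDB3, MYOZ1, XIRP1 and TNNT1 and of the called list genes were recomputed under the alternatives, and none turned its direction. For other genes the direction was compared only with the block, where values near 0 could turn, as TTN did in SRF-FOXO1 against pMSCV (0.02 to -0.02). The number of the 44 genes called moved by over 1.5 times as follows. Shares of all genes called are given above for the main fit and the block only, so the other counts have no background beside them. With the replicate block it was 2 in SRF-RELA, SRF-ICA1L and SRF-FOXO1 against pMSCV, 3 in SRF-FOXO1 against SRF, and 2 in SRF-ICA1L and SRF-RELA against SRF. Among fusions the replicate block gave 1 in SRF-FOXO1 against SRF-ICA1L and against SRF-RELA, 3 in SRF-FOXO1 against SRF-PDGFRB, and 3 in SRF-PDGFRB against SRF-RELA; it ended no call. DESeq2 gave 2 in SRF-RELA, SRF-ICA1L and SRF-FOXO1 against pMSCV, 3 in SRF-FOXO1 and 2 in SRF-RELA against SRF, 1 in SRF-FOXO1 against SRF-ICA1L, 2 against SRF-PDGFRB, and 3 in SRF-PDGFRB against SRF-RELA. With no count filter, 40522 genes were tested, and the number was 0 in SRF-PDGFRB against pMSCV and against SRF, 1 in SRF-RELA against pMSCV and against SRF, 2 in SRF-FOXO1 against SRF and 1 against SRF-ICA1L. The count of 1 in SRF-PDGFRB against SRF-RELA did not move with no filter, but XIRP1 was lost there (edgeR adjusted p 0.124) and MYOZ1 gained (0.00403). Scaling by total count gave 0 in SRF-FOXO1 and 1 in SRF-RELA against pMSCV, and DESeq2 size factors gave 0 in SRF-FOXO1 against SRF-PDGFRB. Fitting only the 6 libraries compared, or leaving out all libraries numbered 2 (chosen after the data were seen), gave 0 in all 9 comparisons with a call; both fits have fewer samples. In the fits of 6 libraries TNNC1, and MYOZ1 against SRF, failed the count filter and were not tested, so 0 there is no test of them. The edgeR adjusted p was 0.159 and 0.127 for MYOZ1 in SRF-ICA1L against pMSCV and SRF-PDGFRB, and for XIRP1 in SRF-PDGFRB 0.683 against pMSCV, 0.180 against SRF, 0.0959 against SRF-ICA1L and 0.304 against SRF-RELA. Leaving out 1 library gave 0 to 3 in SRF-FOXO1 against pMSCV, 0 to 2 against SRF and 0 to 2 against SRF-PDGFRB, 0 to 1 in SRF-ICA1L and SRF-PDGFRB against pMSCV or SRF, 1 to 2 in SRF-ICA1L against SRF-PDGFRB, and 0 to 1 in SRF-PDGFRB against SRF-RELA. A minimum fold change of 2 (log2 of 1) changed no count. The cause of each move was not tested. Depth limits the 29 genes that were not tested, since 3 counts correspond to 0.101 CPM or more in each library.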
